A study of Saccharomyces cerevisiae with 2 samples.

Results

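The long-range contacts of the swr1Δ strain of budding yeast are described here, that is, the Micro-C read pairs whose ends lay more than 3.3 kb and up to 10 kb apart. All pairs at these distances were used, in 2 libraries and 4 read orientations, with no selection on their counts. They numbered 62262 of 8804603 read pairs in the library with more pairs in all (library A) and 87502 of 7314801 in the other (library B). The strain, of the W303 background, carries a deletion of SWR1, which encodes the ATPase of the SWR-C remodeling enzyme that deposits the histone variant H2A.Z. Both samples were grown in YPD at 30 C to mid-log phase and crosslinked with 3% formaldehyde for 15 min, so they form 1 group. The sample labels name 2 replicates and the study's methods give 3, and nothing ties a replicate number to either library. A WT strain was not analysed here, and no strain was compared with another. The counts hold no genes, so the deletion of SWR1 could not be checked in them.

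In Micro-C, crosslinked chromatin is cut between nucleosomes by micrococcal nuclease and the ends that lie close in space are ligated, so that each ligated read pair joins nucleosomes that were close. Pairs a few nucleosomes apart report the local fiber and the chromosome interaction domains (CIDs), which hold a few genes in yeast. Pairs further apart report contacts along the chromosome arm, within a domain or between domains. By the size the study gives for CIDs, pairs in the lower part of the range described here can lie within a single domain. How fast contacts fall with distance is usually given as the exponent of a power law, where a more negative exponent is a steeper fall. A ligated pair can be read in 4 orientations, out-in, in-out, out-out and in-in, according to which end of each fragment was joined. Where ends are joined without regard to direction, each orientation takes an even share of 25%. The 4 names are those of the deposited table, and the sources used here do not say which strands they stand for.

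The pairs from 3.3 to 10 kb were a small part of each library. Of all read pairs they made up 0.707% for library A (0.702% to 0.713%, 95% Wilson interval) and 1.20% for library B (1.19% to 1.20%), or 0.952% ± 0.346 (SD, n = 2 libraries). Of its pairs more than 500 bp apart, library A had 20.95% at these distances and library B had 23.4%. The median distance within the range was 5817 bp for library A and 5959 bp for B. At a single bp of distance, library A held 9.29 pairs on average and library B 13.1. Around the lower limit the counts ran on without a step: library A had 1715 pairs in the last 100 bp below it and 1739 in the first 100 bp above it, and library B had 2336 and 2174. At the upper end, the distance of exactly 10000 bp held 0 pairs in all 8 combinations of library and orientation. All intervals here cover counting error within a library. Without molecular identifiers, PCR copies cannot be told from independent pairs, and the intervals leave them out of account.

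Averaged over this range, contacts fell less than in proportion to distance, and more steeply in library A than in library B. Shorter stretches departed from this average, as given below. In 10 windows of 670 bp, library A fell from 10161 pairs at 3.3 to 4.0 kb to 4121 pairs at 9.3 to 10 kb, a factor of 2.47. Library B fell from 13461 to 6262 pairs, a factor of 2.15. The exponent, from a Poisson regression of the pairs per bp on log distance, was -0.930 in library A (95% interval -0.955 to -0.906) and -0.774 in library B (-0.795 to -0.753). Its mean was -0.852 ± 0.110 (SD, n = 2 libraries). For each doubling of distance, contacts were multiplied by 0.525 in library A and by 0.585 in B. The exponent of library B minus that of library A was 0.156 (0.123 to 0.188), which is larger than counting error. This compares these 2 libraries, not conditions. The difference had the same sign in each orientation, from 0.135 for in-in pairs (0.0706 to 0.199) to 0.170 for out-in pairs (0.106 to 0.235).

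**Figure D1:**
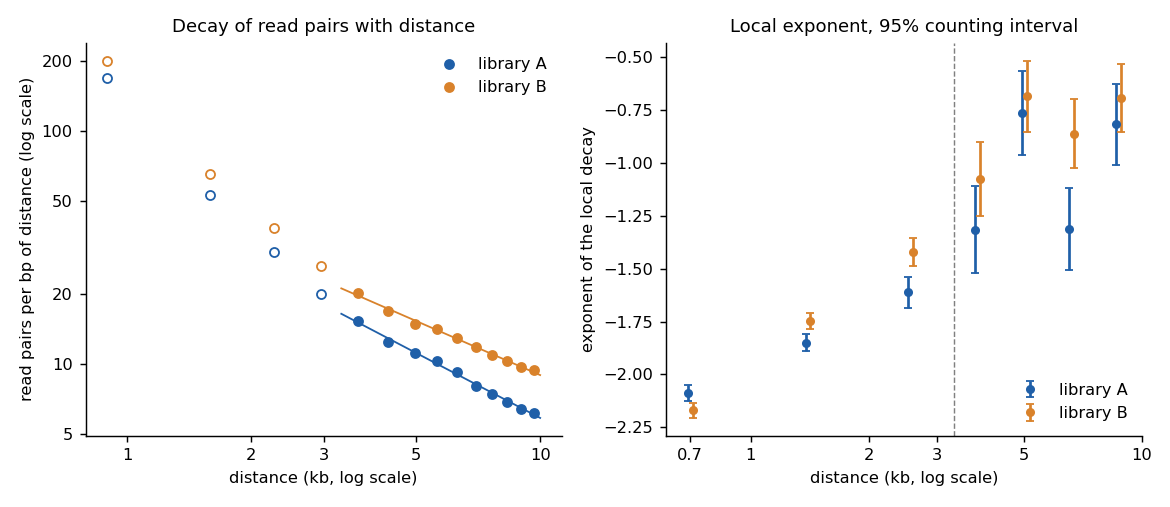
Left, read pairs per bp of distance in windows of 670 bp (log axes), with filled points from 3.3 kb on, open points below and lines for the fitted power laws of library A (exponent -0.930) and library B (-0.774). Right, exponent of the local decay in 7 stretches of distance with 95% counting intervals (points set slightly apart sideways), where the dashed line marks 3.3 kb and all values beyond it lie above those at shorter distances.

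The decay beyond 3.3 kb was far shallower than the decay before it. From 0.5 to 3.3 kb the exponent was -1.93 in library A and -1.90 in B. The exponent beyond 3.3 kb minus that of this shorter stretch was 1.004 for library A (0.976 to 1.03) and 1.13 for B (1.10 to 1.15). With the shorter stretch started at 1.0 kb the difference was 0.772 and 0.815. These differences average over each stretch and do not locate a break at 3.3 kb. Just beyond it, from 3.3 to 4.4 kb, the local exponent was -1.32 in library A and -1.08 in library B. The exponent had already moved toward 0 below the limit, since it was -2.09, -1.85 and -1.61 in library A from 0.5 to 1.0, 1.0 to 2.0 and 2.0 to 3.3 kb. In library B it was -2.17, -1.75 and -1.42 over the same stretches. In the first of these stretches library B was the steeper, with an exponent minus that of library A of -0.0822 (-0.135 to -0.0294). In the next 2 it was the shallower, by 0.104 (0.0488 to 0.159) and 0.192 (0.0927 to 0.290).

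Within the range, a single power law described both libraries to within a few percent, and the evidence for a bend at 5.7 kb differed between them. The distances beyond 5.7 kb, the middle of the range on the log scale, had an exponent of -0.969 in library A against -0.943 before it, a difference of -0.0259 whose interval included 0 (-0.125 to 0.0730). In library B the exponents were -0.772 and -0.869, and the difference was 0.0970 (0.0130 to 0.181). With the break at 6.7 kb it was 0.0742 (-0.0256 to 0.174), so the bend in library B was not beyond counting error at that break. A quadratic term in log distance was 0.109 in library B (0.0364 to 0.182) and 0.0376 in library A (-0.0486 to 0.124). Relative to the fitted line, windows of 670 bp lay between -2.88% and 3.08% for library A, and between -3.97% and 2.66% for B. Both libraries lay below their lines in the 2 windows from 4.0 to 5.3 kb. In library A the 2 windows from 5.3 to 6.7 kb lay above its line, by 3.00% and 3.08%. In library B the same windows were 1.20% and 0.834% above its line, within counting error.

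In 4 shorter stretches of the range, the exponent of library A was -1.32, -0.764, -1.31 and -0.817, and that of library B was -1.08, -0.685, -0.862 and -0.692. The stretches ran from 3.3 to 4.4, 4.4 to 5.7, 5.7 to 7.6 and 7.6 to 10 kb, and the standard errors were 0.0824 to 0.105. Of these 4 stretches, the libraries differed beyond counting error from 5.7 to 7.6 kb, by 0.452 (0.197 to 0.707). When distances of 5.4 to 6.2 kb were left out, the exponents of library A on either side of 5.7 kb became -1.19 and -1.28. Those of library B became -0.815 and -0.769. The interval of the nearer exponent was then -1.48 to -0.899 in library A and -1.07 to -0.564 in B. Both overlapped the intervals from 3.3 to 4.4 kb. In the nearer stretch the libraries then differed by 0.376 (-0.00902 to 0.760), an interval that included 0. They still differed beyond counting error in the farther stretch, by 0.510 (0.0980 to 0.922). The distances left out were chosen after the counts were seen and lie on both sides of 5.7 kb. Leaving them out thus bears on both slopes, and what made the slopes differ was not tested. The windows that led to this choice are described further on.

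Beyond 3.3 kb the orientations were nearly even. In library A, in-in pairs made up 25.4% (25.02% to 25.7%), out-out pairs 24.9% (24.5% to 25.2%), in-out pairs 24.7% (24.4% to 25.1%) and out-in pairs 25.1% (24.7% to 25.4%). In library B the shares were 25.2% (24.95% to 25.5%), 24.9% (24.6% to 25.2%), 24.9% (24.6% to 25.2%) and 24.99% (24.7% to 25.3%) in the same order. Of these 8 shares, the in-in share of library A was the 1 whose interval did not hold 25%, and by a narrow margin. Over both libraries the in-in share was 25.3% ± 0.0857 (SD, n = 2). In-in pairs exceeded out-out pairs by 0.03 on the log2 scale in library A (-0.0034 to 0.06) and by 0.02 in library B (-0.01 to 0.05), so neither ratio was beyond counting error. The log2 ratio of in-out to out-in pairs was -0.02 in library A (-0.05 to 0.01) and -0.01 in library B (-0.03 to 0.02). At distances up to 3.3 kb, by contrast, 90.7% of the pairs of library A and 85.1% of those of B were in-in.

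The approach to even shares could be followed in windows of 670 bp. The in-in share fell from 30.8% in library A and 31.8% in library B at 0.6 to 1.3 kb to 25.5% and 26.0% at 2.6 to 3.3 kb. The out-out share rose over the same windows, from 19.3% to 23.9% for library A and from 19.1% to 24.1% for B. In the first window of the range, 3.3 to 4.0 kb, out-out pairs were still short of an even share in both libraries, at 23.7% (22.9% to 24.6%) and 24.2% (23.5% to 24.96%). Of the 80 shares of the range, 10 lay away from 25% beyond their 95% interval, against 27.7% of all 112 shares from 0.6 kb on and 21 of the 32 shares below 3.3 kb. The 10 shares were unevenly spread over the libraries, with 9 in library A and 1 in library B. In library B all shares of the range lay between 24.2% and 25.7%. In library A they ran from 22.9% to 27.6%, and both extremes were in-in shares, of the adjacent windows of 5.3 to 6.0 kb and 6.0 to 6.7 kb. The out-out shares of these windows, 27.5% and 23.6%, were also away from 25%. Of the other 5 such shares of library A, 2 were at 3.3 to 4.0 kb, and the rest were out-out at 4.6 to 5.3 kb (23.9%), in-out at 8.0 to 8.7 kb (23.7%) and in-in at 9.3 to 10 kb (26.4%).

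**Figure D2:**
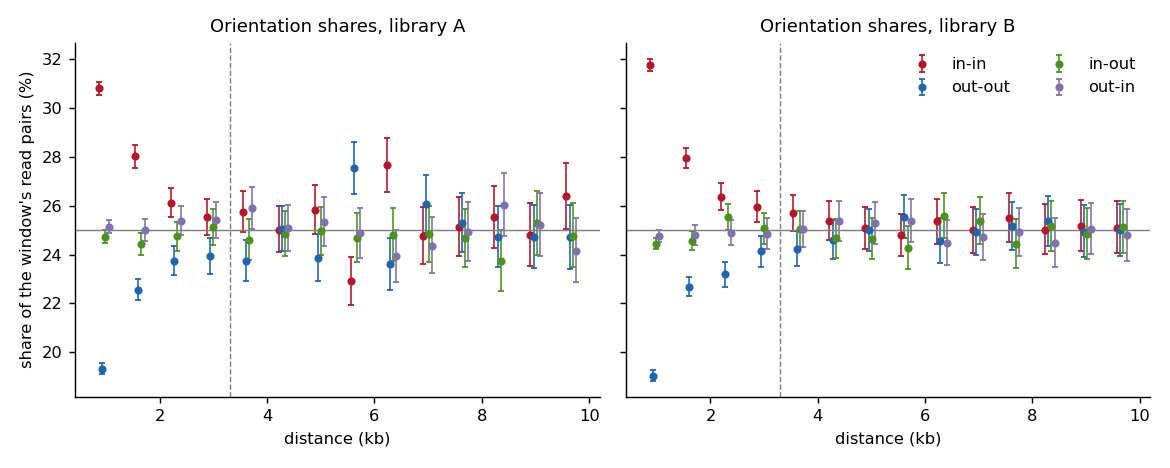
Share of each orientation among the read pairs of windows of 670 bp, by distance in kb, for library A (left) and library B (right), with 95% Wilson intervals, a line at 25% and a dashed line at 3.3 kb. Shares converge on 25% toward 3.3 kb and from there on lie between 24.2% and 25.7% in library B and between 22.9% and 27.6% in library A, whose extremes are at 5.3 to 6.7 kb.

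No difference in decay between orientations was beyond counting error. In library A the exponents were -0.894 for out-out, -0.930 for in-in, -0.963 for out-in and -0.934 for in-out pairs, each with a standard error of 0.0250 to 0.0257. In library B they were -0.745, -0.795, -0.792 and -0.765, with standard errors of 0.0212 to 0.0213. Of the 12 differences between orientations within a library, 0 had an interval that left out 0. The widest gap was in library A, where the out-in exponent minus the out-out exponent was -0.0689 (-0.139 to 0.00133).

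A narrow band of distances in library A departed from the even shares, and did so in in-in and out-out pairs. The range was divided into 134 windows of 50 bp, and in each window the count of an orientation was set against the mean of the other 3. In library A, 6 of 536 such counts exceeded that mean by more than 4 counting SDs, a limit chosen after the counts had been seen. They were out-out pairs at 5401 to 5450, 5501 to 5550 and 5551 to 5600 bp, and in-in pairs at 6001 to 6050, 6051 to 6100 and 6101 to 6150 bp. Out-out pairs there numbered 175, 189 and 196, where the mean of the other orientations was 118, 120 and 126. In-in pairs numbered 164, 190 and 182, where the mean of the others was 109, 112 and 119. The in-out and out-in pairs had no count above 3.04 counting SDs in library A. Because these windows were chosen for their counts in library A, its values are a description.

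Library B was not used to choose the windows, and it had excesses in the same orientations there. The choice by library A raises its own values, so the sizes of the libraries are not compared. Over the 3 out-out windows, library B had 600 out-out pairs against 529 for the mean of the others, a log2 ratio of 0.18 (0.05 to 0.32). Library A had 560 against 363 there, a log2 ratio of 0.62. Over the 3 in-in windows, library B had 581 in-in pairs against 495.3 for the mean of the others, a log2 ratio of 0.23 (0.09 to 0.37), and library A had 536 against 340, a log2 ratio of 0.66. Both ratios in library B were beyond counting error. Window by window, library B was beyond counting error in 1 of 3 out-out windows (5551 to 5600 bp). Of the 3 in-in windows, 2 were beyond it in library B (6051 to 6150 bp). How many of all 536 window counts of library B lay beyond counting error was not computed. Whether these window numbers are unusual for library B was thus not tested. The excess amounted to 197 out-out and 196 in-in pairs in library A and to 71 and 85.7 in library B, or 22.3 ppm for each in library A and 9.71 and 11.7 ppm in library B. By the same limit of 4 counting SDs, 0 windows would have been chosen in library B, where the highest excess was 3.16. Without distances of 5.4 to 6.2 kb, the exponents and their difference between libraries stayed close to the values above (difference 0.157, 0.124 to 0.189). The in-in excess over out-out pairs in library A was then 0.04 on the log2 scale (0.0048 to 0.07), just beyond counting error, and 0.02 in library B (-0.01 to 0.05). What these pairs are was not tested.

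**Figure D3:**
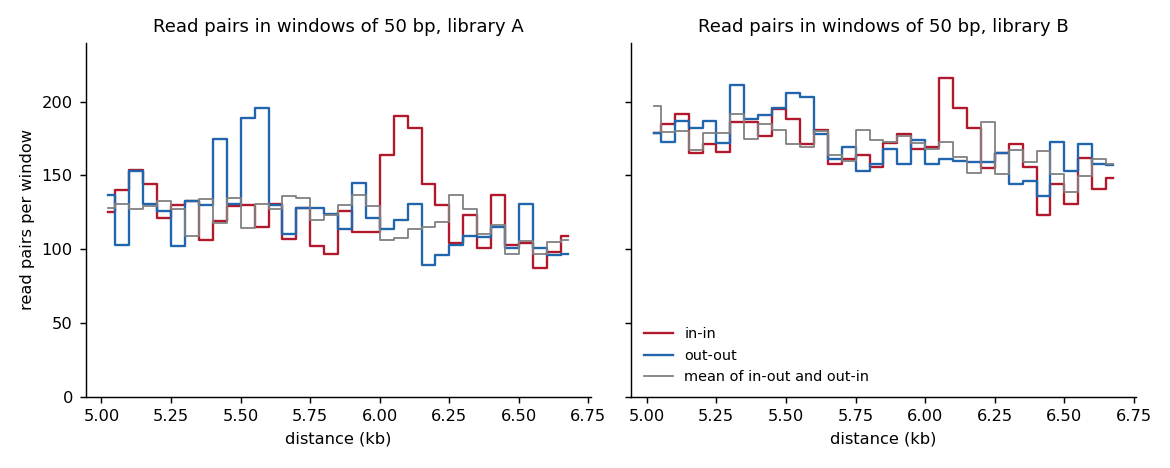
Read pairs in windows of 50 bp from 5.0 to 6.7 kb in library A (left) and library B (right), for in-in pairs, out-out pairs and the mean of in-out and out-in pairs. Out-out pairs of library A reach 196 at 5551 to 5600 bp and its in-in pairs reach 190 at 6051 to 6100 bp, and the in-in pairs of library B reach 216 in the latter window.

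The libraries differed in level and slope at these distances. In ppm of all read pairs, library B lay above library A in all 10 windows of 670 bp. At 3.3 to 4.0 kb library A had 1154 ppm and library B 1840 ppm, a log2 ratio (B over A) of 0.67 (0.64 to 0.71). At 6.0 to 6.7 kb the values were 703 and 1177 ppm, a log2 ratio of 0.74 (0.70 to 0.79). At 9.3 to 10 kb they were 468 and 856 ppm, a log2 ratio of 0.87 (0.81 to 0.93). The gap between the libraries thus widened with distance, as their exponents require. Over the whole range library A had 7072 ppm and library B 11962 ppm, a log2 ratio of 0.76 (0.74 to 0.77). It was almost the same in every orientation, with 0.75 for in-in and out-in pairs, 0.76 for out-out pairs and 0.77 for in-out pairs.

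Distances were also read as numbers of nucleosomes by rounding to multiples of a nominal repeat length, which gave 40 distances from 21 nucleosomes (3383 to 3547 bp) to 60 nucleosomes (9818 to 9982 bp). Library B was above library A beyond counting error at 40 of the 40, where 100% of all 60 distances from 1 nucleosome on were apart in one direction or the other. At 21 nucleosomes library A had 2585 pairs and library B 3437, a log2 ratio of 0.68 (0.60 to 0.75). The ratio was lowest at 29 nucleosomes, at 0.60 (0.52 to 0.69), with 1956 and 2468 pairs. It was highest at 60 nucleosomes, at 0.90 (0.79 to 1.02), with 1033 and 1604 pairs. Its median was 0.71 from 21 to 40 nucleosomes and 0.85 from 41 to 60, against 0.59 from 3 to 20.

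The level of this ratio depended on which pairs formed the total. Scaled to pairs more than 500 bp apart, the log2 ratio over the range was 0.16 (0.15 to 0.18), and 35 of 40 distances were beyond counting error (78.3% of the 60), all of them higher in library B. Without in-in pairs in counts and totals it was 0.08 (0.06 to 0.10), with 21 of 40 distances beyond counting error (58.3% of the 60), again all higher in library B. For the 2 orientations in-out and out-in by themselves it was 0.02 (-0.0047 to 0.04), which was not beyond counting error. On that scale 5 distances were higher and 2 lower in library B (43.3% of the 60 were apart). A change of total alone shifts all distances alike and leaves the rise with distance as it was, so the totals beyond 500 bp give the same rise as those of all pairs. From the distances of 21 to 40 nucleosomes to those of 41 to 60, the median went from 0.11 to 0.25 with totals beyond 500 bp, from 0.02 to 0.17 without in-in pairs, and from -0.04 to 0.10 for in-out plus out-in. The side of 0 on which a distance falls depends on the total.

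**Figure D4:**
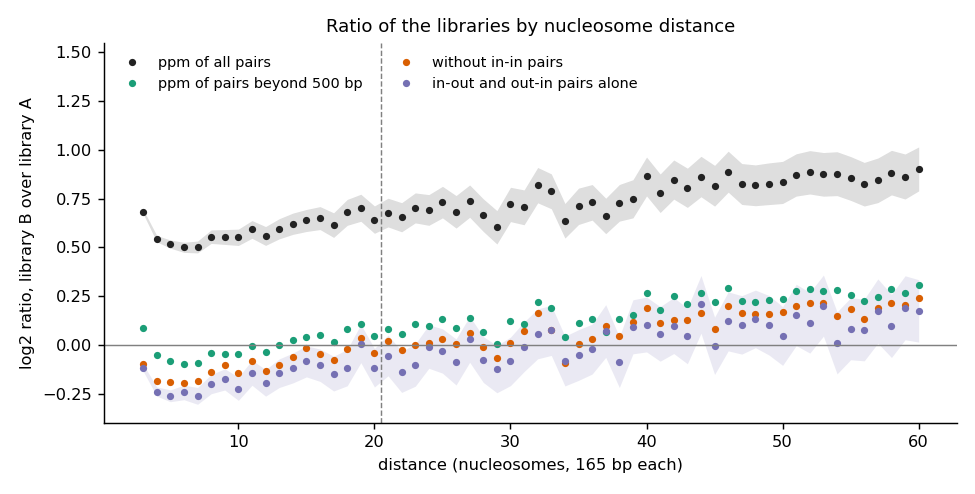
Log2 ratio (library B over A) at distances of 3 to 60 nucleosomes under 4 scalings, with 95% counting intervals shaded for the ppm of all pairs and for in-out plus out-in, and a dashed line after 20 nucleosomes. The ppm ratio lies between 0.60 and 0.90 beyond the line, and under the 4 scalings the median is higher from 41 to 60 nucleosomes than from 21 to 40.

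Once each library was scaled to its own pairs of the range, 15 of the 40 distances stayed beyond counting error (56.7% of the 60), 6 with library B lower and 9 with it higher. The variance of the 40 ratios was 3.05 times that of counting error with a single level, and 1.03 times with a level and a slope in log distance. Apart from level and slope, the libraries therefore differed at these 40 distances by about as much as counting allows. The log2 counts of the libraries over the 40 distances had a Pearson correlation of 0.993, and 0.544 after the fitted decay of each was removed, both given as a description over distances that share the same decay. Per bp of distance, the variance of the counts around the fitted decay was 1.014 times that of counting error in library A and 1.025 times for B, and 0.998 to 1.04 times in single orientations. The farthest single distance was 5724 bp in library A, with 24 pairs where 9.81 were fitted, and library B had 10 pairs there where 13.7 were fitted. In library B it was 5451 bp, with 30 pairs where 14.3 were fitted, and library A had 11 there where 10.3 were fitted. The other 4 leading distances of library A were 6109, 6414, 7214 and 9266 bp, with 17 to 20 pairs each. Those of library B were 4615, 5490, 6173 and 8492 bp, with 22 to 32 pairs each.

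A nucleosome ladder, the periodic rise and fall of contacts as distance passes whole numbers of nucleosomes, was fitted with a fixed period. At the nominal repeat it was above its limit in all pairs at 0.5 to 3.3 kb and not over the whole range beyond. As the amplitude of a period of 1 nominal repeat, in percent of the local count, it was 4.59% (standard error 0.358%) in library A and 3.10% (0.376%) for B from 0.5 to 3.3 kb. From 3.3 to 10 kb it was 0.707% in library A, with a standard error of 0.571% and a joint 95% limit of 1.40%, and 0.817% in library B, with a standard error of 0.484% and a limit of 1.18%. An amplitude is never negative, and neither value passed the limit that counting error alone reaches. A repeat that differs from the nominal one drifts out of step with a fixed period over so long a range, which lowers the amplitude. The values over the whole range therefore do not show where a ladder ends. The amplitude of in-in pairs was 15.1% and 15.4% from 0.5 to 3.3 kb in libraries A and B, and 1.09% and 0.711% beyond. Out-out pairs went from 4.86% and 4.49% to 2.25% and 2.26%, below their limits of 2.84% and 2.35%. In-out and out-in pairs together went from 6.61% to 2.47% in library A, above the limit of 1.98%, and from 7.86% to 0.735% in library B, below the limit of 1.67%. Of the 8 fits of the range this was the 1 above its limit, against 56.2% of the 16 fits over both stretches.

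In windows of 660 bp, which hold 4 nominal nucleosomes, the ladder of all pairs was 7.19% in library A and 6.13% in library B from 0.5 to 1.2 kb, and 0.485% and 1.07% in the next window. From 1.2 kb on the ladder of all pairs was below its limit in every window of both libraries but 1. That window was 4.5 to 5.1 kb in library A (4.34% against 3.97%). All pairs sum orientations whose crests, the highest points within a repeat, lay apart, which lowers the amplitude. From 0.5 to 3.3 kb, in libraries A and B, they lay at 136 and 124 bp for in-in pairs. They lay at 63.0 and 63.1 bp for out-out pairs and at 12.1 and 15.9 bp for in-out plus out-in. In library B in-out plus out-in was still above its limit at 1.2 to 1.8 kb (2.37% against 2.30%). In library A it was below (1.38% against 2.47%). Among the 36 fits in windows from 3.8 kb on, 3 were above their limit (14.3% of all 56 fits from 0.5 kb on), and all 3 were in library A. The limits in these windows ran from 3.34% to 7.504%, and an amplitude below its limit was not told apart from counting error. The farthest from its limit was that of in-out plus out-in at 4.5 to 5.1 kb in library A, at 9.13% against a limit of 5.51%. In library B the same window gave 1.505% against 4.80%. With other periods from 140 to 200 bp, the amplitude over the range was between 0.444% and 1.802% in library A, with the highest at 160 bp, where it was above its limit of 1.40%. In library B it was between 0.114% and 1.17%, with the highest at 185 bp. From 0.5 to 3.3 kb the highest amplitude was at 160 bp in library A (4.59%) and at 155 bp in library B (3.73%).

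**Figure D5:**
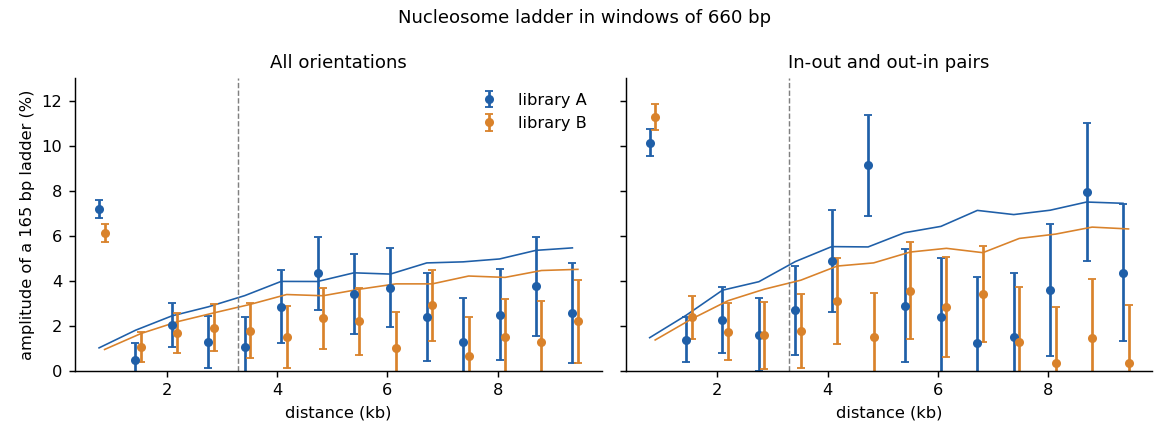
Amplitude of the nucleosome ladder (period of 1 nominal repeat) in windows of 660 bp by distance in kb, for all orientations (left) and for in-out plus out-in (right), with bars of 1 standard error, lines for the joint 95% limit of each library and a dashed line at 3.3 kb. Amplitudes fall below the limits after the first windows, and beyond 3.3 kb the points above their line are all of library A.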

How the data were processed

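Micro-C libraries of the swr1Δ strain were analysed. The authors deposited raw counts without normalization, 1 value per bp of distance up to 10000 bp, per orientation and per library. Per the labels, CASAVA 1.8.2 and Bowtie2 were used with the sacCer3 build, and libraries were made from gel-purified DNA amplified by PCR. Read filters, removal of duplicates and the definitions of distance and orientation are not given in the sources used here. Column sums matched the deposited totals, and 0 per-sample columns were left unused. The authors' compaction scores per gene hold no distances and were not used.

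Exponents were fitted by Poisson regression of counts per bp on log distance, with standard errors scaled by the Pearson dispersion, and differences came from interaction terms. Shares have 95% Wilson intervals. Log2 ratios have 95% counting intervals. With 1 group, no test between groups was made, and SDs over 2 libraries measure only the spread between these libraries, whose origin in separate cultures is not stated for each column. Windows of 670 bp, nucleosome distances as multiples of a nominal repeat of 165 bp (also the ladder period) and the 5 distances of largest excess were named by rule. The range and these choices were made with earlier results of these data known. The excess windows of 50 bp and the alternatives without 5.4 to 6.2 kb, with the exponent fitted up to 9999 bp and with the exponent difference from 4.0 kb on were added after the counts were seen. The functions were tested on simulated data. Python 3.11.15, numpy 2.4.6, scipy 1.17.1, statsmodels 0.14.6 and matplotlib 3.10.9 were used.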

Additional observations from a re-analysis of the deposited data

How the results depend on the processing

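The mean exponent of -0.852 lay between -0.864 and -0.824 under the 7 alternatives other than leaving out a library, and the single libraries gave -0.930 and -0.774. The exponent difference between libraries stayed beyond counting error under all 5 alternatives, of which the start at 4.0 kb and the band left out were chosen after seeing the data. The bend within the range in library B, 0.0970, was 0.0742 with the break at 6.7 kb and no longer beyond counting error. The library ratio of 0.76 was 0.0163 for in-out plus out-in and no longer beyond counting error. The count of nucleosome distances beyond counting error, 40, was 21 without in-in pairs and 15 with totals of the range. Totals of the range set the log2 ratio over the range to 0, so the difference in level does not enter that count. Why the level was lower without in-in pairs was not tested. The ladder of library A, 0.707%, was 1.802% with a period of 160 bp and above its limit of 1.40%, and the cause was not tested. The out-out share, 24.9%, whose SD is very small, was 25.02% from 4.0 kb on, 24.88% up to 9.0 kb and 24.8% without 5.4 to 6.2 kb. The out-in share, 25.02%, was 24.9%, 25.1% and 25.1% under the same alternatives. With each library left out, the in-in share ran from 25.2% to 25.4%, the out-out share from 24.86% to 24.87%, the in-out share from 24.7% to 24.9% and the out-in share from 24.99% to 25.1%. The share of the range among read pairs, 0.952%, was 22.2% of pairs beyond 500 bp and 5.56% without in-in pairs. An offset for chromosome ends was not run, because chromosome lengths were not used here. No paired analysis was possible because there is 1 strain and nothing to pair. At 62262 and 87502 pairs in the range, an amplitude in a single window below the limits given above was not told apart from counting error. The smallest ladder that could be detected was not computed.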
